A study of Homo sapiens with 6 samples.

Results

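The 8 genes described here encode the alpha-tubulins TUBA1A, TUBA1B and TUBA1C, the beta-tubulins TUBB, TUBB2A, TUBB4B and TUBB6, and stathmin (STMN1). They were chosen by gene name and accounted for 8 of 10072 genes and 31 of 21472 transcript models in a count table of long cDNA reads. The table compared Calu-6, a human line from a lung carcinoma, after transfection for 48 h with 10 nM of a non-silencing siRNA (siControl, 3 libraries) or of an siRNA aimed at the junction of TERT exons 1 and 5, which marks the Delta 2–4 splice variant (siDelta2-4, 3 libraries). TERT encodes the catalytic subunit of telomerase. The labels gave all 6 libraries the genotype WT, while the count columns were named for an empty vector, and the methods of the study describe Calu-6 populations that stably carried an empty Flag-V5 vector in both siRNA arms. The study calls the libraries of a group biological replicates, but no source used here says that they came from separate cultures, and the p-values measure only the spread between these libraries.

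Microtubules are hollow polymers of alpha-tubulin and beta-tubulin dimers that serve as tracks for transport and form the mitotic spindle. Each of the 2 subunits comes from several genes, called isotypes, whose proteins differ mostly in their acidic C-terminal tails. Folding of new tubulin requires prefoldin, the CCT chaperonin ring and a set of tubulin cofactors. Stathmin binds free tubulin dimers and promotes the shrinkage of microtubules. Cells also destroy tubulin mRNAs when free dimers are in excess, a form of autoregulation that reads the first amino acids of the nascent chain.

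TUBA1C was the only gene called of the 6 with counts enough for the test, at 1.39 times its siControl level in siDelta2-4. Its share of alpha-tubulin counts went from 11.0% to 15.4%, with a permutation p of 0.3 after adjustment. The call was lost when certain single libraries were left out, and the log2 fold change of 0.48 became 0.30 with a length trend removed. TUBA1A, at a log2 fold change of 0.43, was close to TUBA1C but did not pass the test. TUBA1B, the main alpha-tubulin of these cells, TUBB4B, the most counted of the beta-tubulin genes described here, and STMN1 did not pass the test. Within TUBA1B, a shorter 4-exon model rose while the annotated transcript with most of the counts did not pass the test. The call of that model was lost when certain single libraries were left out. A direct test of how TUBA1B counts were divided between its models did not pass (adjusted p = 0.401 in edgeR's diffSpliceDGE).

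The alpha-tubulin counts had to be divided between genes that are almost alike. In GRCh38, TUBA1A (ENSG00000167552.15) lies at chr12:49184686-49189080 on the minus strand, TUBA1B (ENSG00000123416.15) at chr12:49127782-49131397 on the minus strand, and TUBA1C (ENSG00000167553.17) at chr12:49188736-49274600 on the plus strand. The coding sequences of their most counted annotated transcripts were identical at 97.2% of positions for TUBA1A and TUBA1B, 96.8% for TUBA1B and TUBA1C, and 95.9% for TUBA1A and TUBA1C. Behind the stop codon the transcripts differed in length, with 1373 bases in TUBA1C against 215 in TUBA1A and 176 in TUBA1B.

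The first 30 coding bases are given because in the tubulin genes the first 4 codons, in capitals, encode the stretch that tubulin autoregulation reads. STMN1 is not a tubulin gene, and its capitals mark only the same positions for comparison.
TUBA1A: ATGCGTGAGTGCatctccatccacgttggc
TUBA1B: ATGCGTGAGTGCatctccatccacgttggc
TUBA1C: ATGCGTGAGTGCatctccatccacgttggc
TUBB: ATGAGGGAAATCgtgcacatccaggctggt
TUBB2A: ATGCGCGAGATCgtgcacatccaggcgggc
TUBB4B: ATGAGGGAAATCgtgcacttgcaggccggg
TUBB6: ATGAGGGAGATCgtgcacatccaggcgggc
STMN1: ATGGCTTCTTCTgatatccaggtgaaagaa
The 3 alpha-tubulin genes shared all 30 of these bases, and TUBB and TUBB4B shared the 12 bases of the first 4 codons. The 4 beta-tubulin coding sequences were less alike, with identities from 80.9% to 87.2% between pairs.

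The promoters of the 3 alpha-tubulin genes are given because only TUBA1C was called among them. TUBA1A had a close log2 fold change (0.43 against 0.48), and whether the genes differed from each other was not tested. Each runs from 250 bases before to 50 bases after the RefSeq transcription start on GRCh38.p14, in the direction of the gene, with the motifs CCAAT and GGGCGG in capitals on either strand (ATTGG and CCGCCC on the reverse strand). The windows were chr12:49189031-49189330 for TUBA1A (minus strand), chr12:49131346-49131645 for TUBA1B (minus strand) and chr12:49264832-49265131 for TUBA1C (plus strand).
TUBA1A: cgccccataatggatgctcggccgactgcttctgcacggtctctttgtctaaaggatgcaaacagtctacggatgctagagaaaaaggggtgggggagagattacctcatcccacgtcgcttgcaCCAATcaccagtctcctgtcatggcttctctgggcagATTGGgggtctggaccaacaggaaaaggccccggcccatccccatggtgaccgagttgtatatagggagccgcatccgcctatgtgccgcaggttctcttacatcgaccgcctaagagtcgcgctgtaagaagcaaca
TUBA1B: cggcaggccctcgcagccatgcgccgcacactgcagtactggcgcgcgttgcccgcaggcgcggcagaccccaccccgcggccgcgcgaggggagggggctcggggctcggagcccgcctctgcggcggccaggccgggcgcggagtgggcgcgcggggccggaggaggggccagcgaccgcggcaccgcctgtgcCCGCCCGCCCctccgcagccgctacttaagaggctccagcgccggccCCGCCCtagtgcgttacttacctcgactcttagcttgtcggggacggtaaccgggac
TUBA1C: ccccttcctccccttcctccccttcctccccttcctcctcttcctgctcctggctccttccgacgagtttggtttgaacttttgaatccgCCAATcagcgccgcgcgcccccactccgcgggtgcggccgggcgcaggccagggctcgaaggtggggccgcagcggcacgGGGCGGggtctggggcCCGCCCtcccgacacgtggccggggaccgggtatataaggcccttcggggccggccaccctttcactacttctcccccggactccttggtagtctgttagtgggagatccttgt
TUBA1A held 2 CCAAT and 0 GGGCGG, TUBA1B held 0 CCAAT and 3 GGGCGG of which 2 overlap, and TUBA1C held 1 CCAAT and 2 GGGCGG. Of 35116 RefSeq promoter windows of the same length, 34.6% held CCAAT and 45.0% held GGGCGG. The motif TATAAA, present in 11.5% of windows, was in none of the 3. These matches describe the letters only.

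The siControl libraries held 1037468 to 1106413 counts and the siDelta2-4 libraries 1070009 to 1309241 counts, and the 8 genes took 0.122% to 0.154% of each library. Libraries are named here by their total within the group (highest, middle, lowest), because the labels gave no number that could be matched to the columns. TERT had 0 rows in the table, so its knockdown was not checked here. The siControl library with the lowest total stood apart. Its mean Pearson r of log2 CPM (counts scaled to the same library total) was 0.978 with its own group and 0.978 with the siDelta2-4 group. Because it was singled out by its likeness to siDelta2-4, leaving it out tends to widen the contrast of the groups. Without it 554 genes were called higher and 487 lower, against 272 and 232 with all libraries. Values without it are given as descriptions beside many results, but not for CCT5, MAPRE1 or the models of TUBA1B-AS1. The keratins KRT8 and KRT18 and the mesenchymal marker VIM were counted in both groups. The other epithelial markers with rows were near the floor, with means of 5.13 CPM in siControl and 6.98 CPM in siDelta2-4 for KRT7. EPCAM had 1.61 and 2.20 CPM, and KRT19 had 0 and 0.27 CPM. The adherens junction marker CDH1 had no row in the table. Nor had the 4 markers of lung lineage, 4 of fibroblasts and 3 of endothelium on the lists used. The study filtered its models on counts, so a missing row does not show that a gene had no reads. The summed level of the mesenchymal markers was 125 to 146 CPM in siControl and 153 to 168 CPM in siDelta2-4. Almost all of it was VIM, with means of 132 and 160 CPM. FN1 had means of 0 and 0.58 CPM, and CDH2 had no row. The part of VIM in the results was not tested.

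Per length of transcript, TUBA1B was the most abundant of the 8 genes. Its level was 505 ± 55.3 CPM per kb over the 6 libraries (SD, n = 6). STMN1 at 106 ± 6.92 and TUBB4B at 100.1 ± 5.75 CPM per kb followed, and these neighbours did not differ beyond their spread. TUBA1C stood at 51.2 ± 10.1 CPM per kb and TUBA1A at 32.1 ± 7.21 CPM per kb. TUBB at 7.18 ± 1.68, TUBB6 at 4.21 ± 0.72 and TUBB2A at 3.90 ± 1.79 CPM per kb closed the order, and the last 2 did not differ beyond their spread.

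**Figure D1:**
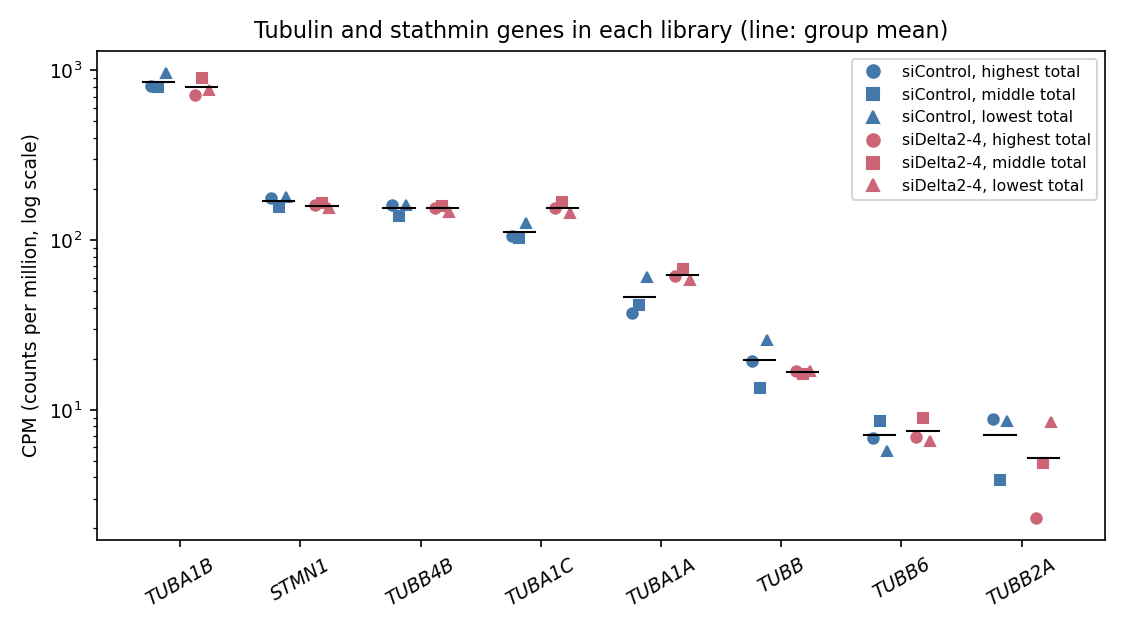
Level of each of the 8 genes in CPM on a log axis, with 1 point for each library (3 siControl, 3 siDelta2-4) and a bar at the mean of each group. The TUBA1C points of siDelta2-4, from 145 to 167 CPM, lie above all those of siControl, from 103 to 126 CPM, while the points of the other genes overlap.

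In the alpha-tubulins the comparison asked whether any isotype changed with the siRNA against Delta 2–4. TUBA1C had 108, 107 and 132 reads in siControl (the order is always that of highest, middle and lowest total) against 200, 205 and 155 in siDelta2-4. All siDelta2-4 libraries lay above all siControl libraries, and the level went from 111 ± 13.0 to 155 ± 10.8 CPM (SD, n = 3 each). The log2 fold change was 0.48 ± 0.12 (SE), with an adjusted p of 0.0140 in edgeR's quasi-likelihood test over 3888 genes. At a limit of 0.1 that test called 504 genes, or 13.0%, among them 272 higher in siDelta2-4 (7.00%) and 232 lower (5.97%). Of the 8 genes, 6 had counts enough to be tested, and 1 rose, 0 fell and 5 did not pass. The 2 groups were free of overlap in CPM for the same 1 of 6, against 26.0% of all genes tested, and 3 of 6 log2 fold changes were above 0, against 53.9%. The median log2 fold change of the 6 was -0.049, beside 0.027 over all genes tested. Because a lysate pools many cells, a change in the share of cells that make an RNA and in the RNA made per cell cannot be told apart.

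The call for TUBA1C depended on which libraries entered. Without the siControl library that stood apart, its log2 fold change was 0.56 with an adjusted p of 0.00076 in edgeR's quasi-likelihood test. When the siControl library of middle total was left out it was 0.42 with an adjusted p of 0.104, and when the siDelta2-4 library of middle total was left out it was 0.42 with an adjusted p of 0.105. Libraries also differed in how the level of a gene, relative to its mean over the libraries, went with transcript length. Across 3888 genes, which are not independent replicates, Spearman rho was -0.318 for the siControl library of highest total and -0.326 for that of middle total. It was 0.123 to 0.362 in the other 4 libraries, and TUBA1C-201 at 2823 nt was the longest of the main tubulin transcripts. With such a length trend removed, the log2 fold change of TUBA1C was 0.30 with an adjusted p of 0.0909.

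TUBA1A, the alpha-tubulin known for its high level in neurons, had 38, 43 and 63 reads in siControl against 80, 83 and 62 in siDelta2-4 (highest, middle and lowest total). The siControl library with the lowest total reached 60.3 CPM, above the 58.1 CPM of the lowest siDelta2-4 library, so the groups overlapped. The level was 46.2 ± 12.4 CPM in siControl and 62.3 ± 4.76 CPM in siDelta2-4 (SD, n = 3 each). The log2 fold change of 0.43 ± 0.18 (SE) did not pass edgeR's quasi-likelihood test, with an adjusted p of 0.149. The value moved with the libraries used. Without the siControl library that stood apart the log2 fold change was 0.65 with an adjusted p of 0.0105, without that of highest total it was 0.28 with an adjusted p of 0.506, and with the length trend removed it was 0.27 with an adjusted p of 0.36.

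TUBA1B, the alpha-tubulin found in most cell types, had 835, 834 and 1007 reads in siControl against 928, 1103 and 823 in siDelta2-4. These were 859 ± 91.3 and 793 ± 94.1 CPM (SD, n = 3 each), and the groups overlapped. Its log2 fold change was -0.12 ± 0.094 (SE), with an adjusted p of 0.489 in edgeR's quasi-likelihood test. Left-out libraries moved it between -0.21 and -0.046, and it was -0.048 without the siControl library that stood apart. With a length trend removed from each library it was -0.28 with an adjusted p of 0.0172, the only alternative of 17 in which TUBA1B was called.

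**Figure D2:**
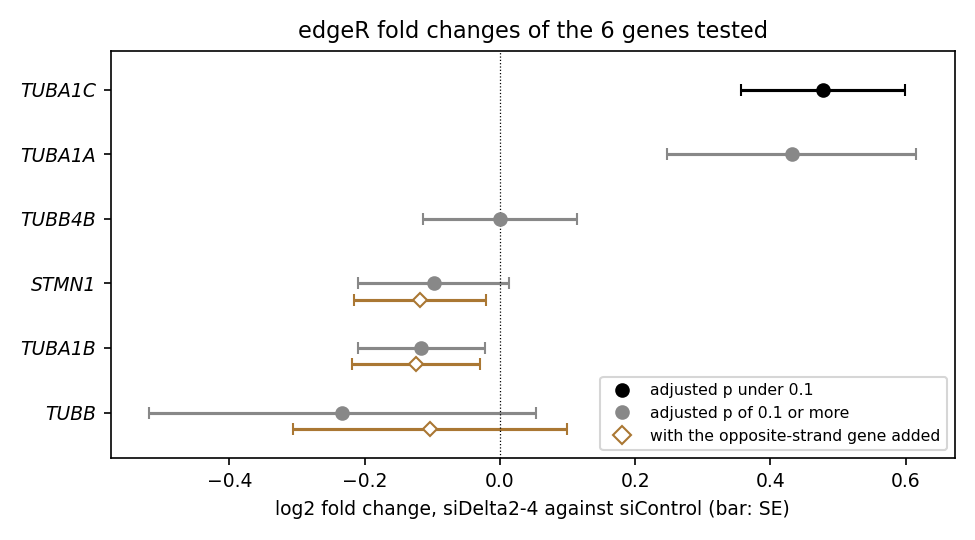
The log2 fold change (siDelta2-4 minus siControl) of the 6 genes tested, with the SE as error bars and a dotted line at 0, and as open diamonds the values of TUBA1B, STMN1 and TUBB with the gene on the opposite strand added. TUBA1C at 0.48 was called by edgeR, and TUBA1A at 0.43 was not.

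Because the shares of isotypes within a library do not depend on the scaling between libraries, they were compared as well. TUBA1C took 11.0%, 10.9% and 11.0% of the counts of the 3 alpha-tubulin genes in siControl and 16.6%, 14.7% and 14.9% in siDelta2-4 (highest, middle and lowest total). The siControl libraries were almost at 1 value, and each siDelta2-4 library lay above them. The mean share went from 11.0% ± 0.071 to 15.4% ± 1.01 (SD, 3 libraries per group, permutation p = 0.1, exact and two-sided, which is the smallest that 3 libraries against 3 can give, and 0.3 after adjustment over 9 shares and ratios). TUBA1A took 4.49% ± 0.69 and 6.18% ± 0.38, and TUBA1B took 84.6% ± 0.69 and 78.4% ± 1.38. The groups did not overlap for any of the 3 shares, which add up to a whole and are therefore not independent of each other. Over models in the annotation alone, the difference in share (siDelta2-4 minus siControl) was 5.74 percentage points for TUBA1C, 2.31 for TUBA1A and -8.05 for TUBA1B. Without the siControl library that stood apart, the TUBA1C share differed by 4.46 percentage points.

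**Figure D3:**
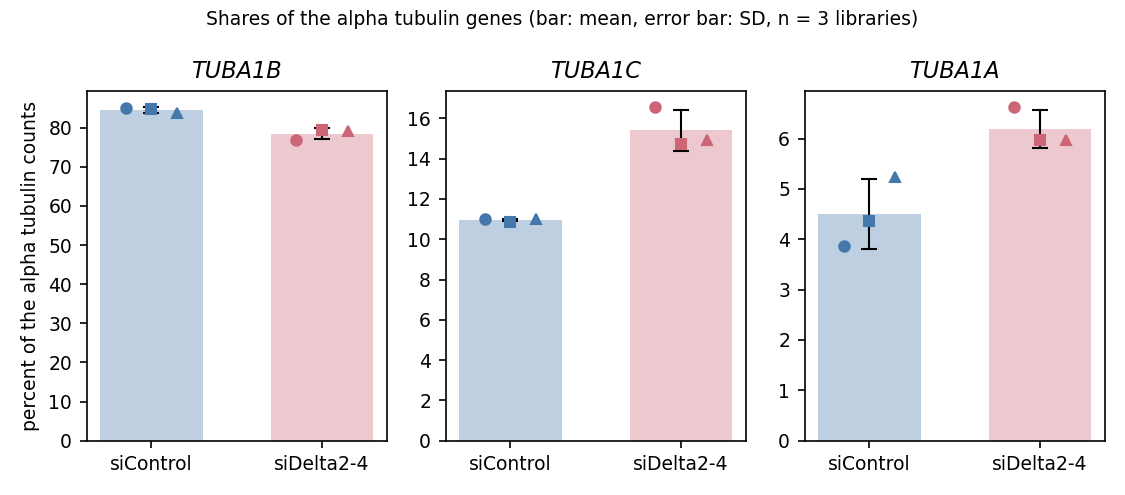
Percent of alpha-tubulin counts taken by TUBA1B, TUBA1C and TUBA1A, with bars at the group mean, error bars of 1 SD and a point for each of the 6 libraries. TUBA1C takes 10.9% to 11.0% in the siControl libraries and 14.7% to 16.6% in the siDelta2-4 libraries.

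The beta-tubulins showed no call. TUBB4B (ENSG00000188229.6, chr9:137241287-137243707, plus strand), a widely expressed beta-tubulin, had 164, 145 and 169 reads in siControl against 202, 195 and 157 in siDelta2-4. The level was 154 ± 12.6 CPM in siControl and 153 ± 5.87 CPM in siDelta2-4 (SD, n = 3 each), and the groups overlapped. Its log2 fold change was 0.00038 ± 0.11 (SE), with an adjusted p above 0.99 in edgeR's quasi-likelihood test, and its sign was negative in 8 of 17 alternatives. TUBB (ENSG00000196230.14, chr6:30717435-30725538, plus strand), the class I beta-tubulin of most dividing cells, had 20, 14 and 27 reads in siControl against 22, 20 and 18 in siDelta2-4. Its log2 fold change of -0.23 ± 0.29 (SE) had an adjusted p of 0.673 in edgeR's quasi-likelihood test. It was -0.0035 without the siControl library that stood apart, -0.45 without that of middle total, and -0.40 with the length trend removed.

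TUBB2A and TUBB6 had too few counts to enter the test. TUBB2A (ENSG00000137267.7, chr6:3153497-3157544, minus strand) had 9, 4 and 9 reads in siControl against 3, 6 and 9 in siDelta2-4. TUBB6 (ENSG00000176014.13, chr18:12307669-12344320, plus strand) had 7, 9 and 6 reads in siControl against 9, 11 and 7 in siDelta2-4. The groups overlapped for both genes, and no difference was detectable at this depth.

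Shares and ratios here count only the alpha-tubulin and beta-tubulin genes described above. They leave out TUBB1, which had 6181 counts that cannot be told apart from reads of ATP5F1E on the opposite strand. Within the beta-tubulin genes counted, TUBB4B took 82.1% ± 2.11 in siControl and 83.9% ± 1.70 in siDelta2-4 (SD, 3 libraries per group, permutation p = 0.4, exact and two-sided). The shares of TUBB at 10.3% ± 2.34 and 9.12% ± 0.44, of TUBB2A at 3.70% ± 1.19 and 2.86% ± 1.74, and of TUBB6 at 3.86% ± 1.23 and 4.07% ± 0.58 overlapped too. For these genes there were 5.44 ± 0.46 alpha-tubulin counts for each beta-tubulin count in siControl and 5.52 ± 0.44 in siDelta2-4 (SD, 3 libraries per group, permutation p = 0.9, exact and two-sided). With TUBB1 left out, this is not a ratio for all tubulin genes.

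STMN1 (ENSG00000117632.23, chr1:25884181-25906991, minus strand) had 181, 163 and 188 reads in siControl against 209, 203 and 164 in siDelta2-4. The level was 171 ± 12.8 and 159.6 ± 5.73 CPM (SD, n = 3 each), with overlapping groups. The log2 fold change was -0.098 ± 0.11 (SE), with an adjusted p of 0.648 in edgeR's quasi-likelihood test. It was -0.080 without the siControl library that stood apart, -0.16 without that of middle total, and -0.26 with the length trend removed. STMN1 counts per 100 counts of the tubulin genes described here, without TUBB1, were 14.2 ± 1.02 in siControl and 13.4 ± 0.99 in siDelta2-4 (SD, 3 libraries per group, permutation p = 0.5, exact and two-sided).

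Long reads also give the structure of each transcript. TALON, the program that made the table, calls a read set Known where it matches an annotated transcript and an incomplete splice match where it follows only part of one. Of the 31 models of the 8 genes, 14 had counts enough to be tested, and 2 rose, 0 fell and 12 did not pass. In the whole series 468 of 6768 models, or 6.91%, were called, with 3.95% of the models higher in siDelta2-4.

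The TUBA1C model that rose was its 4-exon annotated transcript TUBA1C-201 of 2823 nt, which held 87.5% of the counts of the gene. It had 92, 92 and 113 reads in siControl against 181, 182 and 134 in siDelta2-4, with no overlap of the groups in CPM. Its log2 fold change was 0.56 ± 0.13 (SE), with an adjusted p of 0.0152 in edgeR's quasi-likelihood test. That call was lost without the siControl library of highest total (log2 fold change 0.50), without that of middle total (0.49) and without the siDelta2-4 library of middle total (0.49), and without the siControl library that stood apart the value was 0.65. A 1-exon incomplete splice match of 1058 nt held another 10.8% of the counts, and its log2 fold change of 0.17 ± 0.30 (SE) had an adjusted p of 0.834 in edgeR's quasi-likelihood test. The mean length of TUBA1C models, weighted by counts, was 2569 ± 8.04 nt in siControl and 2620.3 ± 38.2 nt in siDelta2-4 (SD, 3 libraries per group, permutation p = 0.1, exact and two-sided). The groups did not overlap in this length, which differed by 51.8 nt, or by 8.84 nt over annotated models alone. The permutation p was 0.267 after adjustment over the 8 genes. TUBB4B and TUBB6 did not overlap in mean length either, with the same p before and after adjustment. They were longer in siDelta2-4 by 6.496 nt and 135 nt, the latter on 49 counts. The groups overlapped for the remaining genes, of which TUBA1A (-27.6 nt) and TUBA1B (-1.05 nt) went the other way. The share of all genes without overlap in mean length was not worked out, so these lengths have no background beside them. The libraries also differed in their trend with transcript length, as given above, and its part in these lengths was not tested.

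In TUBA1B the annotated 4-exon transcript TUBA1B-202 of 1627 nt held 79.1% of the counts. It had 691, 664 and 844 reads in siControl against 685, 861 and 631 in siDelta2-4, and its log2 fold change of -0.19 ± 0.10 (SE) had an adjusted p of 0.318 in edgeR's quasi-likelihood test. The second model of the gene, an incomplete splice match with 4 exons and 1576 nt, held 12.9% of the counts. It had 69, 96 and 103 reads in siControl against 164, 170 and 113 in siDelta2-4. The groups did not overlap in CPM, and the log2 fold change was 0.55 ± 0.15 (SE), with an adjusted p of 0.0357 in edgeR's quasi-likelihood test. As a share of TUBA1B counts, this model went from 10.0% ± 1.64 to 15.6% ± 1.98 and TUBA1B-202 from 82.1% ± 2.18 to 76.2% ± 2.16 (SD, n = 3 each). Its call was lost without the siControl library with the highest total (log2 fold change 0.39) and without the siDelta2-4 libraries with the middle or highest total (0.45 and 0.53), while without the siControl library that stood apart the log2 fold change was 0.65.

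Transcript usage, the division of the counts of a gene between its models, changed in 7 of 1132 genes (0.618%) at the same limit of 0.1 in the quasi-likelihood F test of edgeR's diffSpliceDGE. None of the 8 genes was among them. TUBA1B had an unadjusted p of 0.0273 and an adjusted p of 0.401 in that test, and an adjusted p of 0.0418 without the siControl library that stood apart. TUBA1C, TUBB4B and STMN1 had adjusted p of 0.805, 0.843 and 0.888 in edgeR's diffSpliceDGE.

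**Figure D4:**
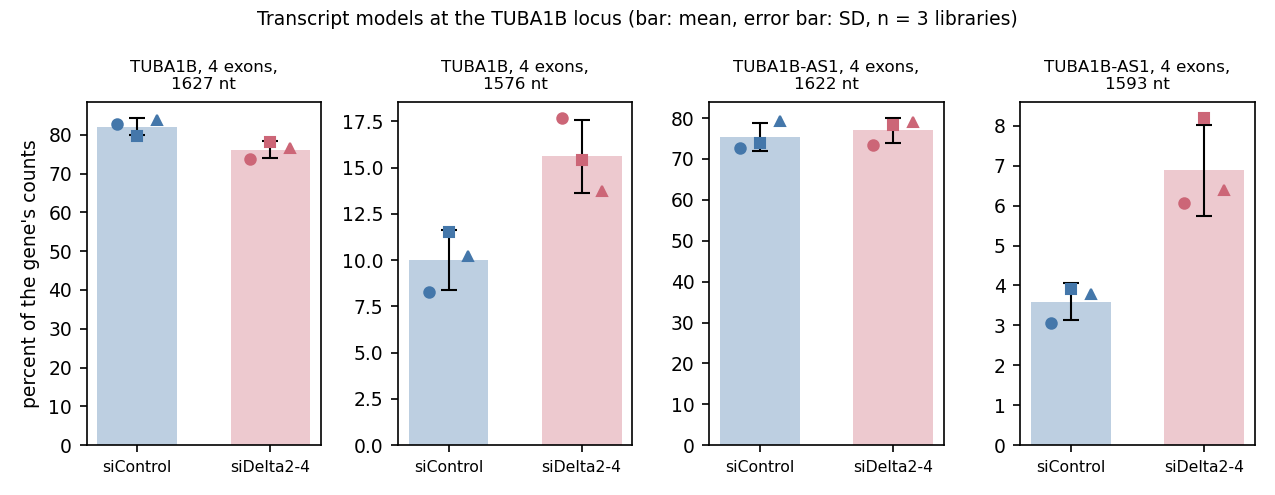
Share of the counts of the gene taken by 2 models of TUBA1B and 2 models of TUBA1B-AS1, the annotated gene on the opposite strand, as percent, with bars at the group mean, error bars of 1 SD and a point for each of the 6 libraries. The shorter model of each gene lies higher in every siDelta2-4 library than in every siControl library, at 13.7% to 17.7% against 8.26% to 11.5% for TUBA1B.

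The other genes were simpler. TUBA1A-202 of 1672 nt held 93.5% of TUBA1A counts, TUBB-205 of 2515 nt held 98.3% of TUBB counts, and TUBB4B-201 of 1563 nt held 91.2% of TUBB4B counts beside a 1-exon incomplete splice match of 1212 nt with 8.62%. STMN1 was split between the annotated 5-exon transcript of 1443 nt (ENST00000455785.7), with 66.1% of its counts, and a 4-exon incomplete splice match of 1802 nt, with 33.7%. Neither STMN1 model passed edgeR's quasi-likelihood test, with log2 fold changes of -0.12 ± 0.14 and 0.036 ± 0.18 (SE) and adjusted p of 0.723 and 0.959. The annotated transcript TUBB6-201 held 79.6% of the 49 TUBB6 counts and a second annotated transcript, of 1017 nt, held 18.4%, and TUBB2A-201 held 95.0% of the 40 TUBB2A counts.

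Several of these genes had a partner on the opposite strand with almost as many counts. TUBA1B had 5530 counts over the 6 libraries, and TUBA1B-AS1, an annotated long non-coding RNA gene that spans it, had 5249. In each library the ratio of antisense to sense counts lay between 0.894 and 0.996. STMN1 had 1108 counts and the pseudogene SNRPFP2, which overlaps it on the other strand, had 1026, with ratios from 0.862 to 1.01. The main SNRPFP2 model had 5 exons and 1443 nt, the same as the main annotated STMN1 transcript. TUBB had 121 counts and ENSG00000272540 on the other strand 118. TUBA1A was overlapped by TUBA1B-AS1 over 3799 nt, and it overlapped TUBA1C on the opposite strand over 345 nt. TUBA1C-201 starts at position 49265082, outside that overlap. TUBB2A, with 40 counts, overlapped BPHL on the opposite strand over 82 nt, and BPHL had 38. The annotated genes opposite TUBB4B and TUBB6 had 0 and 2 counts.

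The counting is not stated to use strand, so reads of a gene and of its partner cannot be told apart. With the counts of both strands summed, the log2 fold changes were -0.12 ± 0.095 for TUBA1B, -0.12 ± 0.097 for STMN1 and -0.10 ± 0.20 for TUBB (SE), with adjusted p of 0.456, 0.495 and 0.813 in edgeR's quasi-likelihood test. Among the models of TUBA1B-AS1, a 4-exon model of 1593 nt had 24, 30 and 38 reads in siControl against 53, 89 and 47 in siDelta2-4, and rose by 0.85 ± 0.23 on the log2 scale (SE, with an adjusted p of 0.0346 in edgeR's quasi-likelihood test). A 4-exon model of 1622 nt with 76.4% of the counts did not pass the test, with a log2 fold change of -0.079 ± 0.12 (SE) and an adjusted p of 0.80 in edgeR's quasi-likelihood test. A 1-exon model of 1099 nt fell by 0.74 ± 0.16 on the log2 scale (SE, adjusted p = 0.0084 in edgeR's quasi-likelihood test), while the 1-exon model of TUBA1B, of 1082 nt, did not pass, at 0.51 ± 0.32 (SE, adjusted p = 0.43).

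**Figure D5:**
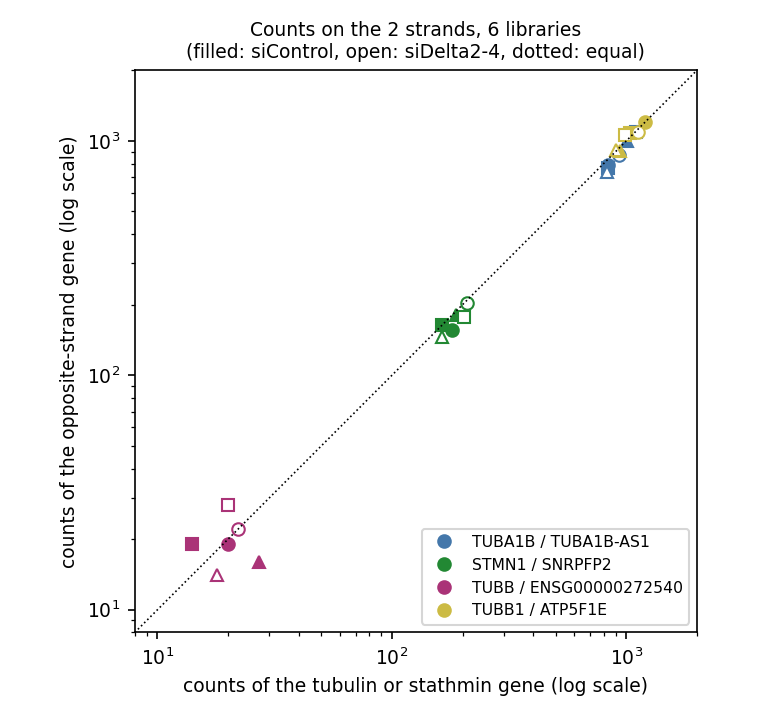
Counts of TUBA1B, STMN1, TUBB and TUBB1 in each library against the counts of the annotated gene on the opposite strand, both on log axes, with filled points for siControl, open points for siDelta2-4 and a dotted line of equality. The points lie close to the line for TUBA1B, STMN1 and TUBB1, with ratios from 0.862 to 1.07, and scatter from 0.593 to 1.4 for TUBB, the gene with the fewest counts.

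The other genes of the pathway were read from lists of names. Of 15 other tubulin genes, 9 were in the table and 3 were tested, of which 0 rose and 1 fell, where 5.97% of all genes tested fell. The one that fell was TUBB1, known as the beta-tubulin of platelets and their precursors, with 6181 counts, of which 1201, 1036 and 935 came from siControl and 1116, 987 and 906 from siDelta2-4. Its level went from 1020.0 ± 139.6 to 836 ± 29.4 CPM (SD, n = 3 each), a log2 fold change of -0.29 ± 0.091 (SE) with an adjusted p of 0.0481 in edgeR's quasi-likelihood test. The call was lost when any 1 library other than the siControl library that stood apart was left out, with log2 fold changes from -0.31 to -0.20, and without that library the value was -0.39. All of these counts sat on 1 incomplete splice match of 1162 nt, and ATP5F1E, a subunit of the mitochondrial ATP synthase that overlaps TUBB1 on the opposite strand, had 6262 counts and a log2 fold change at -0.27 ± 0.092 (SE, adjusted p = 0.0681 in edgeR's quasi-likelihood test). Reads of the 2 genes cannot be told apart here. TUBA4A and TUBG1, the gamma-tubulin that starts new microtubules, had log2 fold changes of -0.11 ± 0.25 and -0.12 ± 0.21 (SE) and did not pass the test. No other stathmin gene had counts in the table.

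In the folding machinery, 22 of 23 genes were in the table and 18 were tested, of which 1 rose, 1 fell and 16 did not pass, where 13.0% of all genes tested were called. Their median log2 fold change was 0.054. CCT5, a subunit of the chaperonin that folds tubulin and actin, had 100, 95 and 111 reads in siControl against 182, 194 and 138 in siDelta2-4. The groups did not overlap in CPM, and its log2 fold change was 0.53 ± 0.12 (SE, adjusted p = 0.00745 in edgeR's quasi-likelihood test). The 7 other chaperonin subunits did not pass, with log2 fold changes from -0.16 ± 0.14 (CCT7) to 0.50 ± 0.27 (CCT8). ARL2, a small GTPase that works with the tubulin cofactors, had 85, 103 and 123 reads in siControl against 91, 98 and 84 in siDelta2-4, and fell by 0.40 ± 0.15 on the log2 scale (SE, adjusted p = 0.0974 in edgeR's quasi-likelihood test). That call was lost when any 1 library other than the siControl library of highest total was left out, with log2 fold changes from -0.43 to -0.28, the last without the siControl library that stood apart. It was kept in 7 of 17 alternatives.

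Among 22 proteins that bind the microtubule lattice or its growing end, 8 were in the table, 3 were tested and 1 was called higher, where 7.00% of all genes tested were. It was MAPRE1, which encodes the plus-end protein EB1, with 3, 7 and 4 reads in siControl against 12, 22 and 12 in siDelta2-4. Its log2 fold change was 1.48 ± 0.42 (SE, adjusted p = 0.0280 in edgeR's quasi-likelihood test), at a level of 60 counts over all libraries. MAPRE1 passed the filter on low counts only through the siDelta2-4 libraries, and it was not tested where at least 10 counts were asked of every library, so the call is given as a description. The call was lost without the siControl library with the highest total (log2 fold change 1.24, adjusted p = 0.137). No gene passed the test among the 9 tested of dynein and dynactin (median log2 fold change 0.17, with 7 above 0), the 2 of tubulin modification, the 1 kinesin gene and the 1 gene of the gamma-tubulin complex, MZT1, at 0.58 ± 0.25 (SE, adjusted p = 0.157 in edgeR's quasi-likelihood test). Genes of tubulin mRNA autoregulation and of microtubule severing had too few counts to be tested. Of the 13 proliferation genes tested 0 were called, where 13.0% of all genes tested were. Of their log2 fold changes 6 were above 0, against 53.9% of all genes tested, and the median was -0.019. The groups did not overlap in CPM for 4 of the 13, against 26.0% of all genes tested.

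Across the 6 libraries, log2 CPM of TUBA1A and TUBA1C moved together with a Pearson r of 0.92, that of TUBB and STMN1 with 0.84, and that of TUBB4B and STMN1 with 0.82, whereas TUBA1B and TUBA1C had -0.050. These are descriptions over 6 libraries that share the group difference and the depth. Among 2366 annotated genes, those with the most similar pattern were TM4SF1 (r = 0.995) and PDLIM2 (0.992) for TUBA1C, UTP20 (0.995) and ENSG00000289382 (0.994) for TUBA1A, and RNASEH1-DT (0.988) and TUBA1B-AS1 (0.983) for TUBA1B. They were LRTOMT (0.974) and RPL3 (0.938) for TUBB, IFI30 (0.970) and AGR2 (0.963) for TUBB4B, and ARPC4 (0.981) and GSEC (0.966) for STMN1.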

How the data were processed

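RNA of Calu-6 cells was made into 6 barcoded PCR-cDNA libraries, which shared 1 flow cell for 72 h of nanopore sequencing. As the labels and the study describe, the authors used minimap2 2.14 and SAMtools 1.13 on GRCh38.p14, corrected the reads, and built models with TALON against Gencode 44 (a model outside the annotation needed 5 reads in each of 3 samples). The deposited values were raw counts of reads per transcript model, not normalised. Every row had a count in siDelta2-4. Genes that TALON placed antisense held 22.0% of all counts, had no coordinates and were not assigned to the 8 genes.

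The siRNA in each column name gave its group, and 0 columns were left out. Counts were summed per gene identifier, and 8168 of 8168 annotated identifiers matched Gencode 44. For genes and models edgeR 4.0.16 (R 4.3.3) was used with filterByExpr, TMM and a two-sided quasi-likelihood test of the groups without covariates, adjusted by Benjamini-Hochberg over all genes or models, and calls were made at an adjusted p under 0.1. CPM used TMM-scaled totals, and log2 CPM a prior count of 2. Transcript usage was tested with diffSpliceDGE by its quasi-likelihood F test, because the F test planned for a plain likelihood fit exists in edgeR only after a quasi-likelihood fit, and the likelihood ratio test was added as an alternative. Shares, ratios and lengths were compared by exact two-sided permutation tests over libraries. CPM per kb divided CPM by the mean length of the models weighted by counts. Sequences came from Gencode 44 on GRCh38 and, for promoters (8 of 8 genes matched), from RefSeq on GRCh38.p14. The gene test was tried on simulated counts with known changes, and the permutation test on an ordered example. The simulation held no length trend, and the tests of models and of transcript usage were not simulated.

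The genes and lists were chosen with earlier results of these data known. Named were the 8 genes, their models with at least 5% of the counts of the gene, called genes of each list and the 2 genes most similar to each member; models of partner genes, MZT1, TUBA4A, TUBG1, CCT7, CCT8 and ATP5F1E were named after their values were seen. Alternatives were DESeq2 1.42.0, other scalings and filters, a stricter threshold, annotated models alone, a length trend removed (loess span 0.4), a block on the column number and each library left out. For shares and ratios, all annotated alpha-tubulin and beta-tubulin genes, TUBB1 among them, were a further alternative, whose values are not given here.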

Additional observations from a re-analysis of the deposited data

How the results depend on the processing

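TUBA1C was higher in siDelta2-4 in all 17 alternatives, with log2 fold changes from 0.30 to 0.56, and was called in 15. Counts below are numbers passing the threshold. The number of the 8 genes called was 1 in the fit reported, 2 with the length trend removed, where TUBA1B was called too (log2 fold change -0.28, adjusted p = 0.0172 in edgeR's quasi-likelihood test), and 0 to 2 with each library left out. Of all genes, 504 were called in the fit reported, 279 by the DESeq2 Wald test, 304 at an adjusted p under 0.05, 252 with annotated models alone, and 194 to 1041 with each library left out. Library totals alone moved the split from 272 higher and 232 lower to 361 and 152, and the median log2 fold change of all genes from 0.027 to 0.095, and removal of the length trend gave 194 higher and 283 lower. DESeq2 size factors gave 249 and 265. Of all models, 468 were called and 173 to 1113 with each library left out. Usage changed in 7 genes, in 4 with library totals alone, in 20 by the likelihood ratio test (chosen after seeing the data, TUBA1B adjusted p = 0.0526 in edgeR's diffSpliceDGE), and in 1 to 61 with each library left out. TUBB4B turned negative with DESeq2 size factors (-0.026), TMM with ribosomal protein and mitochondrial genes left out (-0.016), the DESeq2 Wald test (-0.051), no filter (-0.015), the length trend removed (-0.16), and with each library left out ranged from -0.070 to 0.024. Its model TUBB4B-201 ranged from -0.029 to 0.089 with each library left out, and its mean length fell by 0.159 nt over annotated models alone. With annotated models alone the alpha shares differed by 2.31 (TUBA1A), -8.05 (TUBA1B) and 5.74 (TUBA1C) percentage points. The cause of these changes was not tested. A sum over both strands, also chosen after seeing the data, gave 503 genes and the same 1 member.

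The numbers in the column names did not pair the libraries, with correlations of 0.039, -0.14 and -0.084 between same-numbered libraries, and 0 of 6 libraries correlated best with their own number. With that replicate block 299 genes, 1 gene for usage and TUBA1C (0.48, adjusted p = 0.0416 in edgeR's quasi-likelihood test) were called, and TUBB1 was not (-0.28, adjusted p = 0.105).

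Depth limits TUBB, TUBB2A and TUBB6, which had 121, 40 and 49 counts in all. Reads of opposite strands cannot be told apart, and how reads were divided between near-identical alpha-tubulin genes was not tested.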
